A study of Homo sapiens with 9 samples.

Results

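The CCR4-NOT deadenylase subunits are described here as 10 genes, CNOT1, CNOT2, CNOT3, CNOT4, CNOT6, CNOT6L, CNOT7, CNOT8, CNOT10 and CNOT11, taken by gene symbol out of 56349 genes that could be matched to the quantified transcripts. Their 152 transcripts are among the 215170 that each sample lists. RNA was sequenced from nuclear and cytoplasmic fractions of HEK293 cells, a human embryonic kidney line (the study's methods name 293 T cells). Cells received control siRNA or siRNAs against both WTAP and KIAA1429 (gene symbol VIRMA), proteins of the complex that writes the m6A mark on mRNA, at 10 nM, transfected again after 48 hours and harvested at 72 hours. The groups were 3 control nuclear, 3 RNAi nuclear, 2 RNAi cytoplasmic (replicates 1 and 2) and 1 control cytoplasmic (replicate 2) samples. The remaining cytoplasmic replicates were not analysed here, and every value that involves the control cytoplasm therefore rests on 1 library.

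CCR4-NOT is the main deadenylase of animal cells: it shortens the poly(A) tails of mRNAs, after which the mRNAs are decapped and degraded or translationally silenced. CNOT1 is the large scaffold on which the other subunits are assembled. CNOT2 and CNOT3 form its NOT module, CNOT10 and CNOT11 its amino-terminal module, and the catalytic activity comes from a CAF1-type nuclease (CNOT7 or its paralog CNOT8) joined to a CCR4-type nuclease (CNOT6 or its paralog CNOT6L). CNOT4 is a RING-type E3 ubiquitin ligase that associates with the complex. Proteins that read m6A or bind AU-rich and other 3′ UTR elements bring CCR4-NOT to particular mRNAs.

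The m6A writer methylates adenosines within a short consensus, and GGACT is a frequent spelling of it in DNA letters. The occurrence of GGACT nearest to the stop codon was located in the canonical transcripts, 8 of 10 of which hold these letters, and 6 of these sites are shown because they are where the pathway that was knocked down and these mRNAs could meet in sequence. Sequences run 5′ to 3′ in the sense of the transcript, come from GENCODE version 44 transcripts on GRCh37, and carry the motif in capitals.
CNOT1-201, chr16:58559085-58559109, minus strand, coding sequence: atttggctgtGGACTtggacactga
CNOT2-201, chr12:70731196-70731220, plus strand, coding sequence: aacaatcccaGGACTtctcaataca
CNOT4-211, chr7:135048715-135048739, minus strand, coding sequence: caactttggtGGACTgcccaattct
CNOT6L-201, chr4:78635140-78635164, minus strand, 3′ UTR: aaaaagccaaGGACTaaatcaactt
CNOT8-201, chr5:154254932-154254956, plus strand, coding sequence: atgaggatgtGGACTctgcccagga
CNOT10-201, chr3:32806212-32806236, plus strand, coding sequence: aactctgccaGGACTgtgatgctgt

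The site of CNOT8 lay 57 nt before the end of the stop codon, and those of CNOT10 (310 nt), CNOT1 (363 nt), CNOT4 (425 nt) and CNOT2 (810 nt) lay farther upstream, while that of CNOT6L was 6431 nt into the 3′ UTR. Only the sense strand was searched, since the mark is on RNA. The canonical transcripts of CNOT3 (gene at chr19:54641465-54659419, plus strand) and CNOT11 (chr2:101869348-101886778, plus strand) did not contain these letters. In the 300 bases centred on the stop codon, 2 of the 10 subunits had the motif, against 31% of 12462 canonical transcripts of tested genes. CNOT7 had 9 occurrences in its canonical transcript (1.31 per kb) and CNOT1 had 11 (also 1.31 per kb), and 6 of the 10 subunits were above the median density of 0.93 per kb. The final exons of CNOT6L (7257 nt), CNOT7 (5883 nt) and CNOT6 (4371 nt) were longer than the median of 1671 nt over the canonical transcripts of tested genes, and those of the other 7 subunits were shorter, from 373 nt in CNOT3 to 1503 nt in CNOT8. No methylation was measured in these samples, and a match of letters is not a methylated site. For CNOT7-201 the transcript quantified by the authors was 2649 nt long against 6890 nt in the newer annotation, so reads from the longer 3′ UTR were outside the model used. The canonical CNOT6L-201 and CNOT3-201 were listed at a mean of 0.0 TPM, and nearly all CNOT6L reads went to CNOT6L-206, of 1890 nt. The CNOT6L site and the final exons of these 2 genes thus describe the annotation, not the transcripts that took the reads.

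Both siRNA targets were lower in every RNAi sample than in every control sample of the same fraction. WTAP was at 24.1, 27.6 and 23.0 CPM (counts divided by the library total, after TMM scaling between samples) in the control nuclei and 12.2, 14.3 and 15.5 CPM in the RNAi nuclei. It was at 37.5 CPM in the control cytoplasm and 10.8 and 11.9 CPM in the RNAi cytoplasm. KIAA1429 (VIRMA) fell to 47.2% of its nuclear and 23.8% of its cytoplasmic control level.

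Estimated counts totalled 11627403 to 19036141 per sample, and 3 counts corresponded to 0.19 to 0.303 CPM. The nuclear RNAs MALAT1 and NEAT1 were enriched in the nucleus in both conditions, with summed levels of 232.0 to 368.7 CPM in nuclear samples. In the cytoplasm their sum was 26.8 CPM in the control sample and 16.4 CPM in both RNAi samples. A gene was called where its absolute log2 fold change exceeded 0.5 with an adjusted p under 0.1 (quasi-likelihood test of edgeR, Benjamini-Hochberg over all 16181 genes that passed the count filter). The 5 mitochondrially encoded mRNAs chosen as cytoplasmic markers were not enriched in the cytoplasmic fraction: 3 of 5 were called higher in the nucleus in control cells and 2 of 5 after RNAi. Of 8 HEK293 markers 7 passed the count filter, and of 5 markers of other cells COL3A1 and ACTA1 passed it, at a summed 1.16 to 1.97 CPM in the cytoplasm and 6.03 to 7.52 CPM in the nucleus, while PTPRC and ALB had at most 3 reads in any sample. The labels do not say whether replicates were separate cultures, so p-values measure only the spread between these samples. A lower level in a fraction cannot be told apart from a smaller yield of that mRNA per cell in the fraction, since levels are relative within each library.

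Levels between genes were compared in TPM (reads divided by the effective length of the transcript, scaled to a common total). These values sum all annotated transcript classes of a gene. CNOT11, of the amino-terminal module, and the scaffold CNOT1 had the highest summed TPM of the subunits in all 4 groups. In the control nuclei CNOT11 was at 73.1 TPM (49.2 to 101.0 over 3 samples), CNOT1 at 53.2 (45.5 to 64.4) and CNOT10 at 33.5 (21.4 to 54.5), and neighbouring values in this order overlapped between samples. CNOT4 (14.2 TPM), CNOT6 (12 TPM) and CNOT8 (10.6 TPM) followed and overlapped in sequence, all below CNOT10. Coding transcripts made up on average 28.8% of the TPM of CNOT10 and 95.3% of that of CNOT4 in these nuclei. For CNOT11 and CNOT1 they made up 55.2% and 73.9%. The order by coding transcripts alone was not taken and can differ. CNOT7 (6.72 TPM) and CNOT2 (6.44 TPM) overlapped with each other and were apart from CNOT8 above and CNOT6L (2.36 TPM) below. CNOT3 was listed lowest at 0.974 TPM, a value that the split of its reads described next makes uncertain. In the control cytoplasm, with 1 sample, the catalytic CNOT7 stood next below CNOT10 at 28.8 TPM, above CNOT6 at 20.4 and CNOT8 at 18.8 TPM. Coding transcripts made up 51.8% of the CNOT7 and 97.4% of the CNOT8 TPM in that sample.

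CNOT3 could not be quantified in the same way as the other subunits. Of its 14 annotated transcripts 6 were in the files, and 4 of these had reads and each had 7 further transcripts of equal length that no gene was matched to, whose estimated reads differed from the CNOT3 transcript by at most 0.063 in every sample. Matched CNOT3 reads were 10.8, 4.9 and 8.1 in the control nuclei and 21.1, 11.9 and 21.6 in the RNAi nuclei. With the 7 copies added they were 86.3, 38.9 and 64.8 in the control and 169.2, 95.5 and 173.0 in the RNAi nuclei. The RNAi nuclear samples lay above the control nuclear samples on both counts. In the cytoplasm the summed reads were 170.8 in the control and 326.8 and 90.4 in the RNAi samples, so the RNAi samples lay on either side of the control. With copies added CNOT3 was at 4.85 to 9.57 TPM in the control nuclei, a range that overlaps CNOT2 and CNOT7 rather than lying below CNOT6L. Most reads went to CNOT3-206, a 784 nt transcript annotated for nonsense-mediated decay that took 67.4% to 91.5% of the matched reads, and the full-length CNOT3-201 was listed at 0.0 TPM.

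**Figure D1:**
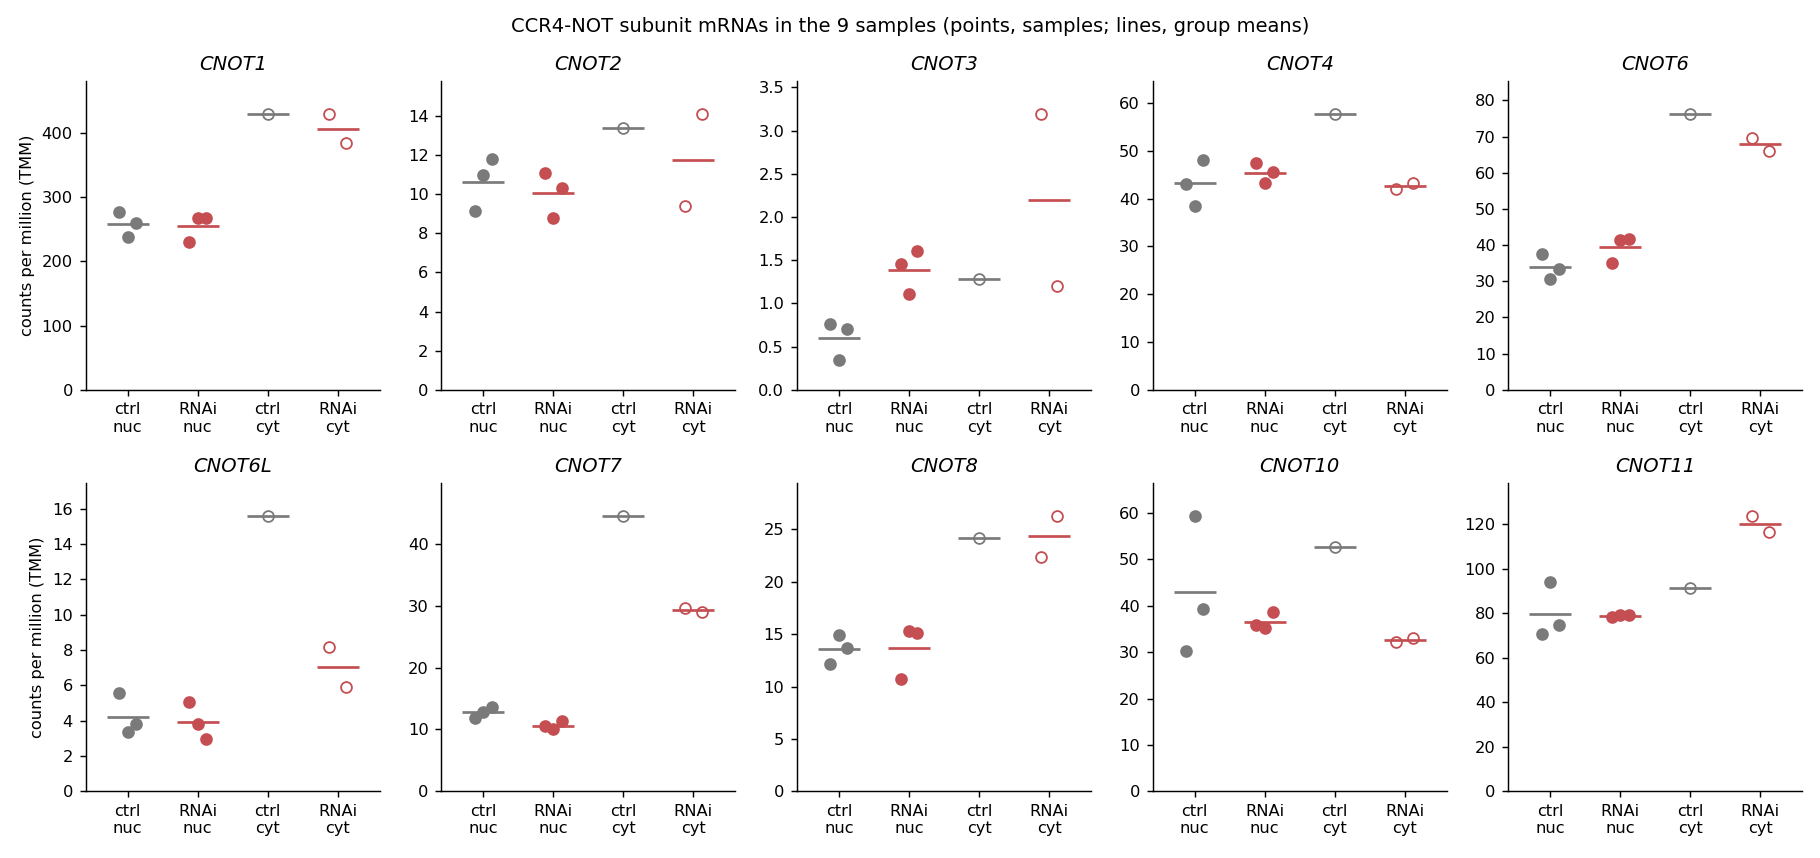
Level of each CCR4-NOT subunit mRNA (CPM after TMM scaling, vertical axis from 0, a separate scale for each gene) in every sample, grouped as control nuclear, RNAi nuclear, control cytoplasmic and RNAi cytoplasmic; points are samples and lines group means. CNOT7 fell from 44.5 CPM in the control cytoplasm to 29.6 and 28.9 CPM, while the nuclear groups of most subunits overlap.

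The first comparison asked whether depletion of WTAP and KIAA1429 altered the subunit mRNAs in the nucleus, where 3 samples stood against 3. No subunit was called, against 4.89% of all genes (2.47% higher and 2.42% lower). With an unadjusted p under 0.05 there were 2 subunits, a count that was not taken over all genes. DESeq2 also called 0, against 617 of 16181 genes. The median over the subunits was -0.02 on the log2 scale, against -0.001 over all genes. CNOT3 and CNOT7 were the 2 subunits whose nuclear samples did not overlap between conditions, which also held for 28.1% of all genes.

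The scaffold CNOT1 was at 276.7, 237.5 and 259.4 CPM in control nuclei and 230.1, 267.2 and 267.9 CPM in RNAi nuclei. These ranges overlapped and the log2 fold change was -0.02 ± 0.098 (SE, adjusted p = 0.9499, edgeR). In the amino-terminal module, CNOT11 was at 79.7 ± 12.5 CPM (SD, n = 3) in control and 78.8 ± 0.511 CPM (SD, n = 3) in RNAi nuclei. CNOT10 was at 30.3, 59.4 and 39.3 CPM in control nuclei and 35.9, 35.2 and 38.7 CPM in RNAi nuclei, so that control replicate 2 alone stood above 40 CPM. CNOT2 was at 10.6 ± 1.35 CPM (SD, n = 3) in control and 10.1 ± 1.18 CPM (SD, n = 3) in RNAi nuclei.

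Of the nucleases, CNOT7 was at 11.9, 12.9 and 13.6 CPM in control nuclei and 10.6, 10 and 11.3 CPM in RNAi nuclei. Every RNAi sample was below every control sample, but the log2 fold change of -0.26 ± 0.114 (SE) had an adjusted p of 0.2229 (edgeR). Its paralog CNOT8 was at 13.6 ± 1.35 CPM (SD, n = 3) in control and 13.7 ± 2.6 CPM (SD, n = 3) in RNAi nuclei. The CCR4-type CNOT6 was at 37.4, 30.6 and 33.5 CPM in control nuclei and 35, 41.4 and 41.8 CPM in RNAi nuclei, with a log2 fold change of 0.22 ± 0.111 (SE) that did not pass (adjusted p = 0.2947, edgeR). CNOT6L, at 2.98 to 5.56 CPM in the 6 nuclear samples, overlapped between conditions. CNOT4 was at 43.2 ± 4.77 CPM (SD, n = 3) in control and 45.4 ± 2.11 CPM (SD, n = 3) in RNAi nuclei.

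CNOT3 had the largest nuclear difference of the 10 subunits and the lowest counts. It was at 0.755, 0.341 and 0.708 CPM in control nuclei and 1.46, 1.11 and 1.6 CPM in RNAi nuclei, with no overlap and a log2 fold change of 1.22 ± 0.45 (SE), which did not pass (adjusted p = 0.1576, edgeR). Summed over its copies, a choice made after these values were seen, CNOT3 was 2.34-fold higher in RNAi nuclei (log2 fold change 1.23 ± 0.368, adjusted p = 0.09325, edgeR) and was called. The call also appeared without a filter on low counts (adjusted p = 0.06831, edgeR), with a replicate block (0.07526, edgeR) and without either RNAi cytoplasmic replicate. These and the sum over copies are the 5 of 18 alternatives that called CNOT3. The other 13 did not, and over all 18 the adjusted p ran from 0.06831 to 0.3639.

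In the cytoplasm the catalytic subunits CNOT7 and CNOT6L were lower after RNAi, and no subunit was called higher. The 2 called subunits of 10 compare with 24.6% of all genes called in either direction and 14.2% called lower, so the count of subunits is near that of genes in general. The median of the subunits was -0.18 against 0.011 over all genes. With library sizes in place of TMM the share of higher among called genes went from 42.1% to 11.9% and the median of all genes to -0.236, and CNOT7 was at -0.86 (-0.63 relative to that median) and CNOT6L at -1.38 (-1.15). The comparison sets 2 RNAi samples against the 1 control cytoplasmic sample, whose spread was taken from the other groups.

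CNOT7 was at 44.5 CPM in the control and 29.6 and 28.9 CPM in the RNAi cytoplasm. Both RNAi samples were below the control, at 65.7% of it (log2 fold change -0.61 ± 0.152, SE, adjusted p = 0.01977, edgeR). The call held in all 18 alternative settings tried, with adjusted p between 0.00969 and 0.06431. All 18 share the 1 control cytoplasmic sample, so they cannot show whether its level of CNOT7 would recur. CNOT6L was at 15.6 CPM in the control and 8.18 and 5.9 CPM in the RNAi cytoplasm, or 45.6% of control (log2 fold change -1.13 ± 0.338, SE, adjusted p = 0.03922, edgeR). This call was lost with an offset for transcript length (adjusted p = 0.1026) and without RNAi cytoplasmic replicate 2 (log2 fold change -0.98, adjusted p = 0.1422).

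The paralogs of these nucleases were not called. CNOT8 was at 24.2 CPM in the control and 22.4 and 26.3 CPM in the RNAi cytoplasm, on either side of the control, with a log2 fold change of 0.01 ± 0.227 (SE). CNOT6 was at 76.2 CPM against 69.5 and 66.1 CPM, a log2 fold change of -0.17 ± 0.16 (SE, adjusted p = 0.4992, edgeR). Whether CNOT7 and CNOT8, or CNOT6L and CNOT6, differ from each other in response was not tested.

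CNOT4 was at 57.7 CPM in the control and 42.1 and 43.2 CPM in the RNAi cytoplasm. Its adjusted p of 0.06715 (edgeR) passed, but its log2 fold change of -0.44 ± 0.151 (SE) was within the limit of 0.5, and it was not called. CNOT10 was at 52.6 CPM against 32.1 and 33.1 CPM (log2 fold change -0.69 ± 0.291, SE, adjusted p = 0.1217, edgeR). It was called in 5 of 18 alternatives, among them the fits without control nuclear replicate 1 (adjusted p = 0.02453) and replicate 2 (0.01089).

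CNOT11 was the subunit with the clearest positive value in the cytoplasm, at 91.4 CPM in the control and 123.7 and 116.4 CPM in the RNAi samples. With a log2 fold change of 0.39 ± 0.168 (SE) and an adjusted p of 0.1266 (edgeR) it was not called, and with library sizes in place of TMM the value was 0.14 (0.37 relative to the median of all genes). The scaffold CNOT1 was at 429.7 CPM against 429.1 and 384.7 CPM, and CNOT2 at 13.4 CPM against 9.42 and 14.1 CPM. CNOT3 was at 1.28 CPM against 3.19 and 1.2 CPM, with an adjusted p of 0.3452 (edgeR).

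In control cells the subunit mRNAs leaned to the cytoplasm. The nuclear to cytoplasmic log2 values of all 10 subunits were negative, with a median of -0.78 against 0.037 over all genes, and 5 subunits were called lower in the nucleus: CNOT1, CNOT6, CNOT6L, CNOT7 and CNOT8. These include all 4 nucleases. The background is 22.7% of all genes called lower in the nucleus, 28.0% called higher and 50.8% in either direction. The 3 control nuclear samples were set against the 1 control cytoplasmic sample. How many of all genes had a negative value was not counted. On log2(TPM + 0.1) CNOT11 was at 0.05 (-0.07 relative to the median of all genes), and CNOT8 was no longer called, at -0.82.

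CNOT6L and CNOT7 had the lowest ratios, with nuclear levels at 27.3% (log2 -1.87 ± 0.31, SE, adjusted p = 0.0008851) and 28.8% (log2 -1.80 ± 0.138, SE, adjusted p = 1.946e-05, edgeR) of the cytoplasmic level. CNOT7 was at 11.9 to 13.6 CPM in the control nuclei and 44.5 CPM in the control cytoplasm. CNOT6 was at 44.4% (adjusted p = 0.0001759), CNOT8 at 56.4% (adjusted p = 0.008516) and CNOT1 at 60.0% (adjusted p = 0.001434, edgeR). CNOT4 was at 74.8% and passed the adjusted p (0.03091) but not the fold limit. CNOT2 (log2 -0.34), CNOT10 (-0.29) and CNOT11 (-0.20) were not called. CNOT3 had a value of -1.09 (adjusted p = 0.1481, edgeR) and was called at -1.13 (adjusted p = 0.07445) when summed over copies.

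CNOT10 in this comparison depended on control nuclear replicate 2. Without that sample its log2 value went from -0.29 to -0.59 and it was called (adjusted p = 0.01049, edgeR).

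After RNAi, 6 subunits were called lower in the nucleus than in the cytoplasm, the same 5 and CNOT11, against 24.9% of all genes called lower, 32.9% called higher and 57.8% in either direction. The median was -0.68 against 0.035 over all genes. CNOT7 was at 36.5% of its cytoplasmic level (log2 -1.45 ± 0.121, SE, adjusted p = 8.19e-06), CNOT6L at 55.9%, CNOT8 at 56.3%, CNOT6 at 58.1% and CNOT1 at 62.7%. CNOT11 was at 65.6% (log2 -0.61 ± 0.123, SE, adjusted p = 0.001671, edgeR). CNOT4 (log2 0.09) and CNOT10 (0.17) had positive values that did not pass, and CNOT2 (-0.21) and CNOT3 (-0.69) were not called. The call of CNOT6L was lost without RNAi cytoplasmic replicate 1 (log2 -0.58, adjusted p = 0.2122). The calls of CNOT1 and CNOT11 were both lost with library sizes in place of TMM (log2 -0.40 and -0.34), with the length offset (-0.19 and -0.45) and with at least 10 counts required in every sample (-0.48 and -0.42), which left 4 called subunits in each of these settings.

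The ratio after RNAi depended on the setting. Testing log2(TPM + 0.1) with limma changes the scaling, the length correction and the test together. There the median of all genes was itself 0.459, and CNOT1 had the opposite sign at 0.24 (-0.22 relative to that median). With library sizes alone in place of TMM the median was 0.305, and CNOT1 stayed negative at -0.40 (-0.70 relative to it). Which of the changed steps moved CNOT1 was not tested. On log2(TPM + 0.1) only CNOT7 kept its call among the 6, and CNOT10 was called higher at 0.96 (0.50 relative to the median; adjusted p = 0.03198, limma).

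**Figure D2:**
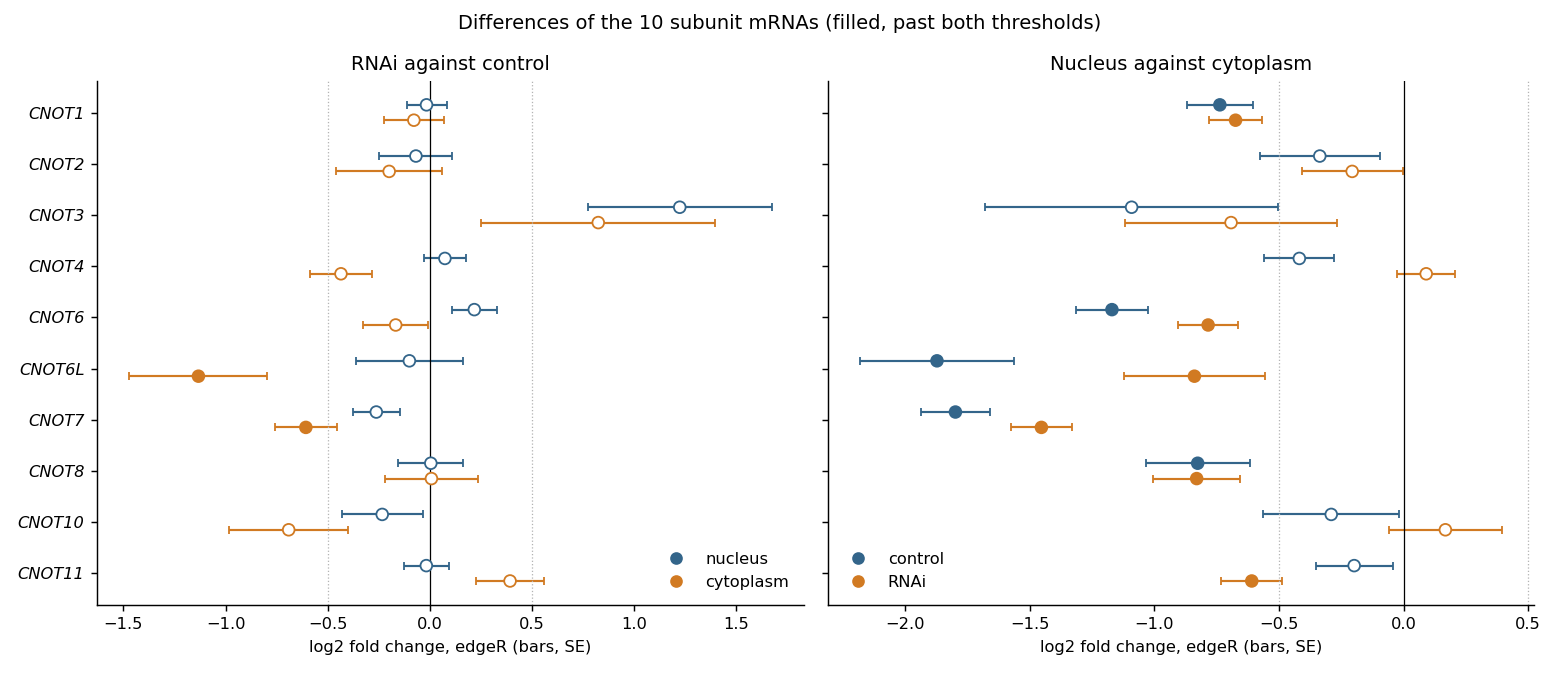
Log2 fold change of each subunit (horizontal axis; bars, standard error) for RNAi against control in nucleus and cytoplasm (left) and for nucleus against cytoplasm in control and RNAi cells (right). Filled points passed both thresholds, dotted lines mark a log2 fold change of 0.5 in either direction; in the left panel only the cytoplasmic values of CNOT6L (-1.13) and CNOT7 (-0.61) are filled, and in the right panel all 4 nucleases are filled and left of 0.

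The study's contrast is the change of the nuclear to cytoplasmic ratio after RNAi relative to control, which asks whether an mRNA is held in the nucleus when the m6A writer is depleted. CNOT4, the ubiquitin ligase, was the 1 subunit of 10 that passed, with a ratio 1.42-fold higher after RNAi (log2 0.51 ± 0.183, SE, adjusted p = 0.09865, edgeR). Of all genes 10.4% were called higher, 7.87% lower and 18.2% in either direction, and with library sizes in place of TMM the share of higher among called genes went from 56.9% to 93.2% as the median of all genes moved to 0.233. CNOT4 was at 0.80 on that scale, or 0.56 relative to the median. Values were positive for 8 of the 10 subunits, with a median of 0.37 against -0.047 over all genes. The contrast shares its samples with the comparisons above and is not independent of them.

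The value of CNOT4 lies at both limits. Its nuclear samples overlapped between conditions (38.5 to 48 CPM in control, 43.3 to 47.5 CPM after RNAi), and the cytoplasmic level was 57.7 CPM in the 1 control sample against 42.1 and 43.2 CPM. The call was lost in 11 of 18 alternatives, over which the adjusted p ran from 0.03605 to 0.189. Among these were the fits without either RNAi cytoplasmic replicate (0.1706 and 0.1402), without any 1 of the RNAi nuclear replicates (0.1812, 0.1269 and 0.1841), and without control nuclear replicate 2, where the log2 value was 0.43.

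CNOT6L had the highest value of the 10 (log2 1.03 ± 0.431, SE) but did not pass (adjusted p = 0.1474, edgeR), and it was called in 4 of 18 alternatives, among them the fit without control nuclear replicate 1 (1.34, adjusted p = 0.04907). CNOT10 was at 0.46 ± 0.355 (SE), and at 0.77 with a call when control nuclear replicate 2 was left out (adjusted p = 0.02971). CNOT6 was at 0.39 ± 0.194 (SE, adjusted p = 0.2252, edgeR), with a call at 0.52 when control nuclear replicate 1 was left out (adjusted p = 0.09006). CNOT7 was at 0.35 ± 0.191 (SE, adjusted p = 0.2699, edgeR) and was called on log2(TPM + 0.1), at 1.16 (0.86 relative to the median of all genes, adjusted p = 0.09182, limma). CNOT3 was at 0.40 ± 0.72 (SE). CNOT2 (0.13), CNOT1 (0.06) and CNOT8 (-0.004) were near 0 on the scale of TMM-scaled counts. On log2(TPM + 0.1) they were at 0.74, 0.88 and 0.60 (0.44, 0.58 and 0.30 relative to the median), and none was called. CNOT11 (-0.41 ± 0.201, SE, adjusted p = 0.2136, edgeR) was negative without a call. MALAT1 and NEAT1 had ratio changes of 1.33 and 0.84 that were called, and their part in the values of the subunits was not tested.

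The subunits differed in how closely they followed their common profile across the 9 samples. The root mean square difference of a gene's log2 profile from the mean profile of the subunits was 0.097 for CNOT1, 0.173 for CNOT6 and 0.205 for CNOT8, and 0.434 for both CNOT6L and CNOT7, 0.439 for CNOT10 and 0.595 for CNOT3. The median over all tested genes was 0.479. Each subunit is itself part of the mean profile, which lowers its own difference, so its value is not directly comparable with this median. The genes closest to the mean profile were NPEPPS and CIPC (0.058 each), PDE12 (0.07), MRPS30 (0.072) and ZNF207 (0.073), all over the same 9 samples.

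At transcript level 41 subunit transcripts passed the filter, and limma on log2(TPM + 0.1) called 0 of them in the nuclear comparison (0.18% of 49963 transcripts), 0 in the cytoplasmic comparison (0.737%) and 0 in the ratio change (0.588%). With an unadjusted p under 0.05 there were 2, 7 and 3 transcripts, against 4912, 6324 and 5600 of all 49963. On the estimated counts edgeR called 0, 1 and 0, against 0, 1321 and 493 of 50857. The 1 called by edgeR was CNOT1-211 in the cytoplasm, named after its value was seen. It had 0.0 reads in the control cytoplasm and 20.5 and 9.3 in the RNAi cytoplasm. CNOT7-201, the main coding transcript of CNOT7, had a cytoplasmic log2 value of -0.84 ± 0.345 (SE, adjusted p = 0.3783, limma), and CNOT6L-206, which took nearly all CNOT6L reads, had -1.22 ± 0.428 (SE, adjusted p = 0.308, limma).

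Of the 152 transcripts 124 had reads in some sample and 38 had a mean of at least 1 TPM. CNOT1 had 12 of these. CNOT1-201 (8471 nt, 47.1% to 70.9% of the gene's reads) and CNOT1-216 (7660 nt, 19.7% to 49.1%) carried most of the reads. The coding transcripts CNOT1-219, CNOT1-214, CNOT1-212 and CNOT1-208 took at most 2.1% of reads each, as did the transcripts of other classes, CNOT1-218, CNOT1-217, CNOT1-213, CNOT1-209, CNOT1-221 and CNOT1-222. In CNOT4 the reads were spread over CNOT4-204, CNOT4-206, CNOT4-202 and CNOT4-211, all coding. CNOT4-204 was at 0.86 TPM in the control cytoplasm and 2.22 ± 0.09 TPM (SD, n = 2) in the RNAi cytoplasm, with 2.82 to 7.24 TPM in the nuclear samples, all above the cytoplasmic ones. CNOT4-202 leaned the other way, at 0.0 to 3.8 TPM in the nuclear and 2.78 to 8.19 TPM in the cytoplasmic samples. CNOT4-206 and CNOT4-211 overlapped between fractions. How many of all transcripts lie apart between fractions was not counted.

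Among the nucleases, CNOT6-201 (6176 nt) took 77.8% to 96.3% of the CNOT6 reads, and the short CNOT6-203 and CNOT6-206 took at most 7.1% and 1.8%. CNOT6L-206 (1890 nt) took 83.9% to 100% of the CNOT6L reads, and the canonical CNOT6L-201 (8843 nt in the files) was listed at a mean of 0.0 TPM. CNOT7-201 took 60.5% to 80.2% of the CNOT7 reads, beside CNOT7-211 (coding), CNOT7-210 (retained intron) and CNOT7-202 (nonsense-mediated decay). In CNOT8 the transcripts with a mean of at least 1 TPM were CNOT8-201 (2528 nt, 31% to 67.1% of reads) and the 620 nt CNOT8-208 (4.0% to 18.2%), so that other transcripts held a sizeable share. Of these CNOT8-202, named after its values were seen, had 42.7, 44.6 and 39.3 estimated reads in control nuclei and 0.1, 0.0 and 0.0 in RNAi nuclei, with no overlap (how many of all transcripts do not overlap was not counted). Its nuclear log2 value of -3.76 ± 0.815 (SE, adjusted p = 0.2691, limma) was not called, and in the cytoplasm it had 34.0 reads in the control and 65.9 and 1.8 after RNAi. CNOT8-204, also named after its values were seen, had 0.0 reads in the control cytoplasm and 23.1 and 81.6 in the RNAi cytoplasm. Of the 31-base stretches of CNOT6L-201, 10.1% also occur in transcripts of other genes, mostly the pseudogene CNOT6LP1, and 5.2% of those of CNOT7-201, mostly CNOT7P1. Neither pseudogene was given any read in the 9 samples, and the paralog pairs CNOT6 and CNOT6L, and CNOT7 and CNOT8, share 0 such stretches.

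CNOT2-201 took 26.4% to 89.6% of the CNOT2 reads and was the only transcript of that gene with a mean above 1 TPM. CNOT10 reads were divided among CNOT10-201 (coding, 39.6% to 63.5%), CNOT10-203 (annotated for nonsense-mediated decay, 18.4% to 36.5%) and the shorter CNOT10-211, CNOT10-212, CNOT10-208, CNOT10-215 and CNOT10-213. CNOT10-212 was at 2.76 to 7.18 TPM in the nuclear samples and 0.0 to 0.85 TPM in the cytoplasmic ones. CNOT10-211 overlapped between fractions, at 1.52 to 9.95 TPM in the nuclear and 3.27 to 13.43 TPM in the cytoplasmic samples. CNOT11-201 (2599 nt) took 74.9% to 86.2% of the CNOT11 reads, beside CNOT11-203 and CNOT11-202.

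Some transcripts annotated as retained introns in CNOT10 and CNOT1 had reads only in the nuclear samples. CNOT1-221, of the same class, had 30.3 reads in RNAi cytoplasmic replicate 2 and 0.0 in control nuclear replicate 3. CNOT10-215, CNOT10-213, CNOT1-204 and CNOT1-222 had 0 reads in all 3 cytoplasmic samples and at least 1 read in all 6 nuclear samples, with 6.7 to 25.4, 1.1 to 10.6, 9.2 to 122.5 and 5.6 to 12 estimated reads. These are 4 of 124 subunit transcripts with reads, against 3.12% of all transcripts with reads, and 4 of 21 subunit transcripts annotated as retained introns, against 8.35% of all such transcripts. The first count is near the share of all transcripts, and the difference of the second was not tested. The 4 transcripts are shown by the splice sites of the introns whose sequence they keep, with 15 bases on each side, intron in capitals and exon in lower case (GRCh37, 5′ to 3′ in the sense of the gene).
CNOT10-215, upstream 3′ splice site, chr3:32805932-32805961, plus strand: TTCGTGTTTTTGTAGgatcagacaaaggtg
CNOT10-215, 5′ splice site, chr3:32805968-32805997, plus strand: aagcaatggaatcctGTAAGTAAGAAGTTT
CNOT10-215, 3′ splice site, chr3:32806159-32806188, plus strand: ACTCTTTTTCCCCAGctggtaagcgggccc
CNOT10-213, 3′ splice site, chr3:32811364-32811393, plus strand: CTGTTTTGAGCAAAGgcggcttcaatgatc
CNOT1-204, 3′ splice site, chr16:58566285-58566314, minus strand: TTGTGTTTTACGTAGgtccttggtatagta
CNOT1-222, 3′ splice site, chr16:58564237-58564266, minus strand: ATTTCTTTCTTTCAGgggtggcctatgtat

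All 4 begin inside an intron, of 1591 nt (CNOT10-215), 5077 nt (CNOT10-213), 1751 nt (CNOT1-204) and 1610 nt (CNOT1-222), and run across its 3′ splice site. CNOT10-215 also keeps the whole next intron of 191 nt, from its 5′ to its 3′ splice site. All retained-intron transcripts of CNOT10 together made up 12%, 21.7% and 12.3% of its TPM in control nuclei and 19.9%, 18.6% and 12.8% in RNAi nuclei. In the cytoplasm they made up 0.4% in the control and 0.0% in both RNAi samples, so every nuclear sample was above every cytoplasmic one. By estimated counts the nuclear share of CNOT10 was 2.6% to 6.9%, since these transcripts are short. The 2 nuclear groups overlapped.

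CNOT10 was 1 of 5 subunits with a retained-intron share between 1% and 99% on average, and the only one of them with every nuclear sample above every cytoplasmic one, which held for 42.8% of 6529 genes with such a share. In CNOT1 the share was 8.6%, 35% and 8.6% of TPM in control nuclei and 16.4%, 29.3% and 28.6% in RNAi nuclei, against 0.0% in the control cytoplasm and 0.0% and 15.4% in the RNAi cytoplasm. RNAi cytoplasmic replicate 2 thus overlapped the nuclear range. CNOT11-203, a 572 nt retained-intron transcript, was as high in the cytoplasm (46.7% to 53.9% of the gene's TPM) as in the nucleus (40.3% to 54.8%). CNOT7 and CNOT2 varied widely between replicates, with shares of 1.4% to 41.3% and 1.9% to 42.6% in the nuclear samples.

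**Figure D3:**
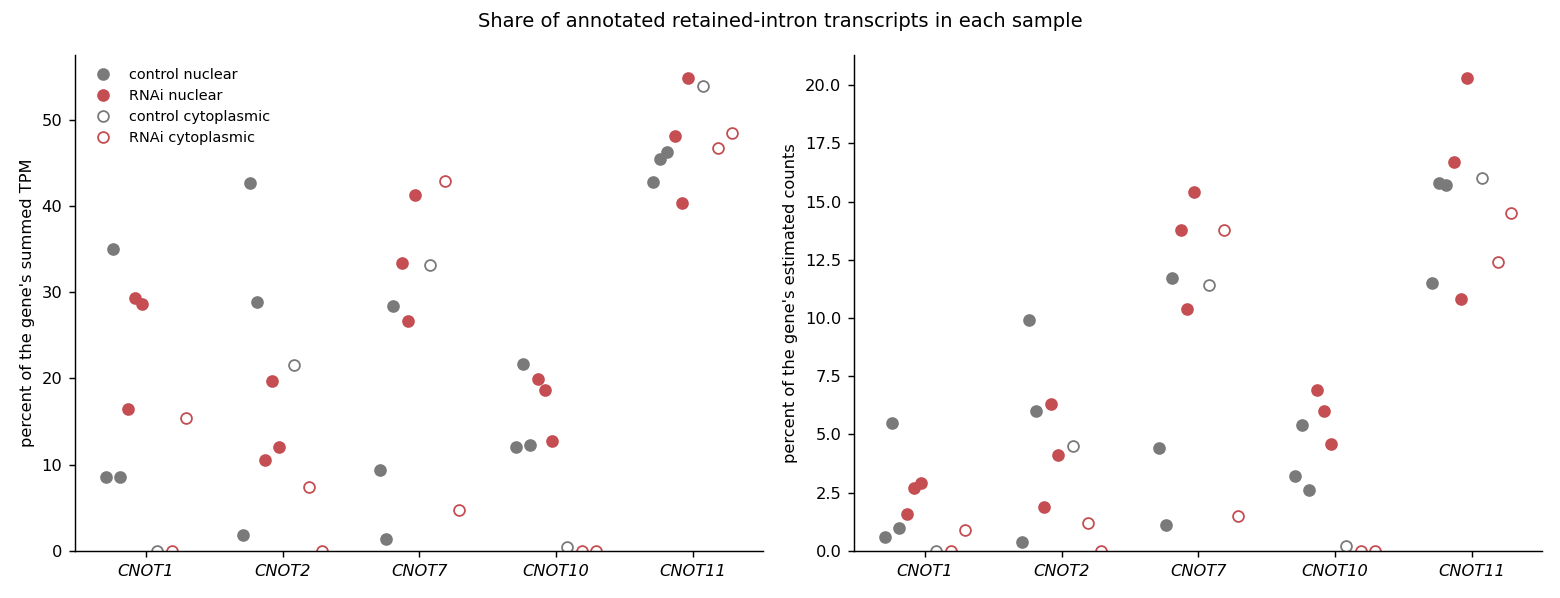
Share of annotated retained-intron transcripts in 5 subunits, as percent of the gene's summed TPM (left) and of its estimated counts (right); each point is a sample, filled for nuclear and open for cytoplasmic, grey for control and red for RNAi. CNOT10 nuclear samples lie at 12% to 21.7% of TPM and its cytoplasmic samples at 0.0% to 0.4%, while CNOT11 does not separate by fraction.

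Between control and RNAi nuclei, 7 of 25 class shares of the subunits did not overlap, against 13.9% of 26430 such shares over all genes (7.04% higher after RNAi). Shares of a gene sum to 100% and the 7 are therefore not separate observations. They were the nonsense-mediated decay share of CNOT1 (1.8% to 3.2% of TPM in control, 3.9% to 5.2% after RNAi), the coding and nonsense-mediated decay shares of CNOT3, the coding share of CNOT4 and that of its transcripts with no defined coding sequence, and the coding shares of CNOT7 and CNOT8. By estimated counts the CNOT1 share overlapped (1.0% to 2.2% in control, 1.3% to 2.9% after RNAi). The CNOT8 coding share also overlapped by counts (96.2% to 98.2% in control, 93.5% to 96.6% after RNAi). Those of CNOT3, CNOT4 and CNOT7 stayed apart by counts. In CNOT4 the 4 transcripts with no defined coding sequence went from 3.2%, 7.2% and 3.8% of TPM in control nuclei to 11.9%, 12% and 10.2% in RNAi nuclei, and from 0.4% to 0.8% of its estimated counts to 1.4% to 1.5%. They rest on few reads, 2.3, 4.6 and 2.0 in control nuclei and 10.3, 6.4 and 9.2 in RNAi nuclei. In CNOT7 the coding share was 79.2%, 93.9% and 67.4% in control nuclei and 49.8%, 61.3% and 58.7% in RNAi nuclei. These were chosen for lying apart and are given as descriptions.

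Other genes of the deadenylation pathway were taken by known function, as 5 lists. Of the remaining CCR4-NOT components, CNOT9 was not called in any comparison, while TNKS1BP1, a large protein that associates with CNOT1, was at 16.1 CPM in the control cytoplasm and 31 and 36.0 CPM in the RNAi cytoplasm. Its ratio change was -0.87 ± 0.18 (SE, adjusted p = 0.01525, edgeR), opposite in sign to 8 of the 10 subunits. The other deadenylases gave 1 call in each direction among 8 tested, against 10.4% of all genes called higher in ratio and 7.87% lower. PAN3 was called higher (0.71 ± 0.199, SE, adjusted p = 0.0452) and its catalytic partner PAN2 lower (-0.80 ± 0.23, SE, adjusted p = 0.04783, edgeR). PAN2 was at 15 CPM in the control cytoplasm and 30.5 and 26.5 CPM after RNAi, and PAN3 at 19.2 CPM against 12.2 and 13.9 CPM.

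Of 25 proteins that recruit CCR4-NOT to mRNAs, 6 were called higher in ratio and 0 lower, against 10.4% and 7.87% of all genes, a split that the scaling shifts as given above. The largest were HELZ, a helicase (1.37 ± 0.286, SE), RC3H1, which encodes the RNA-binding protein Roquin-1 (1.26 ± 0.262, SE), and TNRC6A, a scaffold of microRNA silencing (0.91 ± 0.233, SE). In the cytoplasm 3 of the 25 were called higher and 7 lower, against 10.4% and 14.2% of all genes. In the nucleus, where 4.89% of all genes were called, only TNRC6C was called, at 0.63 (adjusted p = 0.07486, edgeR), a gene named after its value was seen. HELZ was at 203.0 CPM in the control cytoplasm and 84.1 and 84.7 CPM after RNAi, with overlapping nuclear levels.

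Of 12 genes for decapping and 5′ to 3′ decay, the steps that follow deadenylation, the median ratio change was 0.04. Of the 12, 3 were called higher in ratio and 0 lower, against 10.4% and 7.87% of all genes, a split that the scaling shifts. The 3 were the exonuclease XRN1 (2.29 ± 0.42, SE, adjusted p = 0.009759), the helicase DDX6 (1.75 ± 0.453, SE, adjusted p = 0.03478) and the decapping enzyme DCP2 (1.05 ± 0.36, SE, adjusted p = 0.08727, edgeR). XRN1 was at 13.0 CPM in the control cytoplasm and 4.83 and 2.62 CPM after RNAi. DDX6 was listed at only 1.37 to 3.41 CPM over all samples. Of 9 genes for poly(A) tail binding, LARP4 was called higher in ratio (1.58 ± 0.196, SE, adjusted p = 0.002028, edgeR). PAIP1 (-0.54) and PAIP2 (-0.59), which bind poly(A)-binding protein, were called lower in the nucleus after RNAi, as were 2.42% of all genes. The medians of the 5 groups ran from -0.42 to 0.29, against 0.37 for the 10 subunits and -0.047 for all genes.

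**Figure D4:**
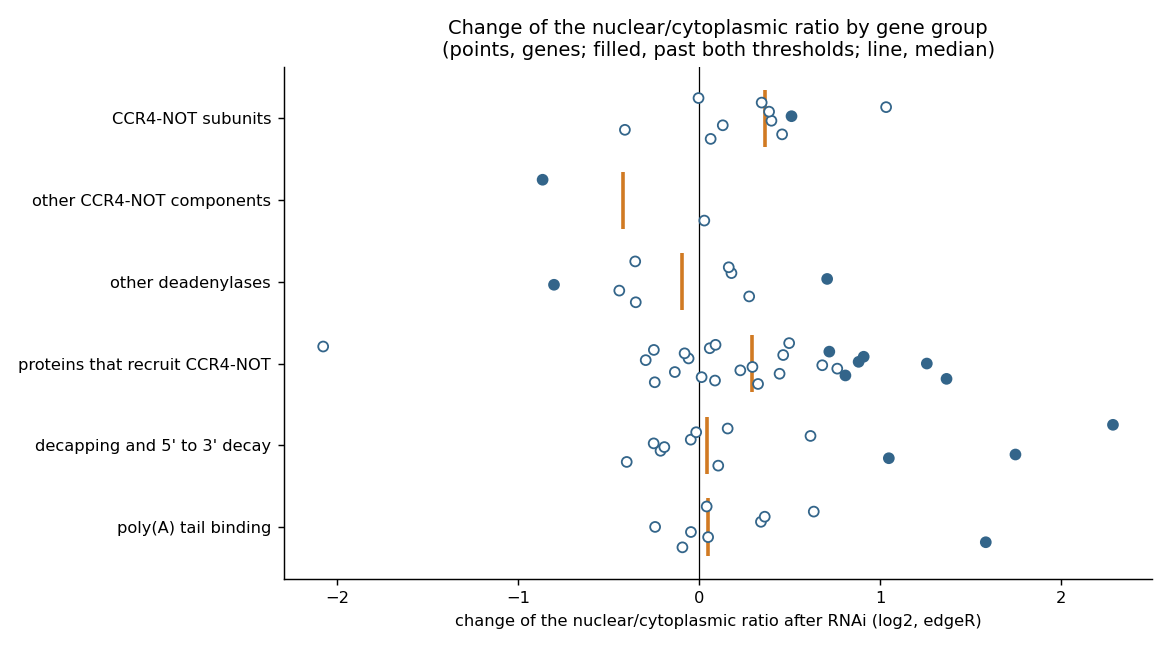
Change of the nuclear to cytoplasmic ratio after RNAi (log2, horizontal axis) for the 10 subunits and 5 other gene groups of the pathway; each point is a gene, filled where it passed both thresholds, and the vertical line is the group median. The subunits have a median of 0.37 with CNOT4 as the only filled point, and the farthest filled points to the right are XRN1 (2.29), DDX6 (1.75) and LARP4 (1.58).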

How the data were processed

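The authors trimmed 9 nt from read 1 and 6 nt from read 2 with cutadapt, merged lanes and ran salmon against Ensembl version 75 transcripts of hg19 (the salmon version is not given in the sources used here). The deposited files hold, for each sample, salmon's estimated counts per transcript, not normalized between samples, and TPM values, which the authors' tool divided by effective length and scaled to a common total. Transcripts were matched without version to GENCODE version 44 on GRCh37, the same build with a newer annotation: 183122 of 215170 (85.1%) matched, with 83.07% to 88.31% of counts.

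Counts were summed per gene and rounded. Genes with at least 10 counts in at least 3 samples (16181) were fitted with edgeR 4.0.16 in R 4.3.3 (TMM, 4 groups, 9 samples, quasi-likelihood test, 5 residual degrees of freedom), with the study's contrast and thresholds (0.5 and 0.1). The control cytoplasmic sample borrowed its spread from the other groups. The printed SE is the log2 fold change divided by the square root of F. Transcripts were tested with limma 3.58.1 on log2(TPM + 0.1). Alternatives included DESeq2 1.42.0, other scalings and filters, a length offset, a replicate block and left-out samples. Code was tested on simulated data.

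All 10 subunits, their transcripts of at least 1 TPM, both siRNA targets and up to 3 genes per pathway list with the largest called nuclear or ratio change were named. Members and lists were chosen with earlier results of these data known. Replicates differed beyond sampling noise (the lowest chi-square, divided by its degrees of freedom, was 5.61). The sequence site of CNOT6 is not reported here.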

Additional observations from a re-analysis of the deposited data

Results flagged for a closer look

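The nuclear and cytoplasmic responses to RNAi differed by the interaction test (edgeR's quasi-likelihood test, adjusted p under 0.1) for 1 subunit, CNOT4, with a change of the ratio of 0.51 on the log2 scale. They also differed for WTAP itself (0.89), which fell less in the nucleus than in the cytoplasm. Among the pathway genes with the largest called changes, the difference was -0.87 for TNKS1BP1, -0.80 for PAN2, 0.71 for PAN3, 1.37 for HELZ, 1.26 for RC3H1, 0.91 for TNRC6A, 2.29 for XRN1, 1.75 for DDX6, 1.05 for DCP2 and 1.58 for LARP4. All of these rest on the 1 control cytoplasmic sample. The transcripts that mirror CNOT3 and were matched to no gene held 1064 reads over all samples. The main comparisons did not use them, and only the sum of CNOT3 over its copies did. No group held 4 or more samples, so no sample was tested for standing apart from its group.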

How the results depend on the processing

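Of the values of single subunits under alternatives, 848 kept their side of the thresholds (63 of them, never called, changed sign), 35 gained a call, 30 lost it and 2 that were called reversed: CNOT1 between nucleus and cytoplasm after RNAi, at 0.24 on log2(TPM + 0.1) and 0.23 on log2(TPM + 1). Both scales shift the median of all genes, to 0.459 and 0.315. Library size alone moved it to -0.236 in the cytoplasm and 0.233 in the ratio change, where calls higher made up 93.2% of calls against 56.9% with TMM. The nuclear count of called subunits (0) became 1 with CNOT3 summed over copies, 1 without a filter and 0 to 1 with a replicate left out. The cytoplasmic count (2) became 4 with at least 10 counts in every sample, 4 with library size only, 1 with the length offset and 1 to 3 with a replicate left out. The count after RNAi (6) became 2 on both TPM scales, 4 with library size only, with the length offset and with at least 10 counts in every sample, and 5 to 7 with a replicate left out. That in control (5) was 4 on both TPM scales, 7 without a filter and with the replicate block, and 5 to 6 with a replicate left out. The ratio change count (1) became 0 with DESeq2 size factors, with the DESeq2 Wald test, with the length offset and at 0.05, 3 with library size only, 2 on log2(TPM + 0.1) and 0 to 3 with a replicate left out. Transcript counts (0 each) became 4 (cytoplasm) and 3 (ratio change) without a filter, 1 with edgeR in the cytoplasm, and 0 to 1 with a replicate left out in the nucleus and in the ratio change. The causes were not tested. With a replicate block the nuclear count was 1 (CNOT3) and the ratio change count 2, and no other count moved by over 1.5 times. Same-numbered nuclear samples correlated in their deviations at 0.185, 0.11 and 0.042, and differently numbered ones at -0.172 to 0.056. The RNAi cytoplasmic samples correlated with same-numbered nuclear samples at 0.037 to 0.197. With the block 1035 genes were called in the nucleus against 792, and 4038 in the ratio change against 2953. The main fit did not use the numbers as pairs, and whether they pair the samples was not settled. At these depths CNOT3 and CNOT6L are the least precise, and the control cytoplasm could not be left out of the comparisons that use it.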
